A study of Mus musculus with 18 samples.

Results

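The control libraries of a neuron-labelled set, Neuron-ctrl 1 and 2, were compared with mouse brain at embryonic days 16 and 18 (E16 and E18) across 12760 genes that averaged 1 RPKM or more. These 4 libraries, 2 of Neuron-ctrl and 1 of each stage, were taken by their titles from 18 RNA sequencing libraries. Neuron-ctrl is labelled brain, genotype WT, and is the control of a set in which the other arm, Neuron-PLA, carries PLAAT3-PEX11 overexpression. E16 and E18 are labelled brain, genotype WT, and belong to a course that also holds E11, E12, E13 and E14. Ctrl1, the control of an earlier set with the same overexpression and also labelled brain, genotype WT, is set beside them with 2 libraries. For all of them RNA was taken up in Trizol and 2 ug of total RNA entered the library. The labels give neither the age of the Neuron-ctrl tissue, nor how its cells were obtained or sorted, nor whether its libraries come from separate animals. The series' design text names cortex or primary stem cells in triplicate, whereas each stage has 1 library here.

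In the developing cortex, radial glia line the ventricle and divide, producing intermediate progenitors that divide again and neurons that migrate outward. Deep-layer neurons that project below the cortex are born first and upper-layer neurons that project within it are born later, so that their proportion shifts late in gestation. A maturing neuron first builds its cytoskeleton and axon, then its presynaptic release machinery, and later replaces early subunits of receptors, transporters and chromatin complexes with late ones. Microglia, vessels and blood enter the tissue from outside the neural lineage, and interneurons migrate in from the ventral forebrain.

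Expression was read as RPKM, reads scaled to exon length and library size, and differences are between means of log2(RPKM + 1), Neuron-ctrl minus the mean of E16 and E18. A gene is called higher or lower when both Neuron-ctrl libraries lay beyond both stage libraries in that direction and the difference was at least 2-fold on this scale. No test was made, because the Neuron-ctrl and stage values stand in separately normalised tables, so that table and source cannot be told apart. The libraries held 22356919 and 21725291 reads in Neuron-ctrl, against 41913827 at E16 and 54373317 at E18. Across genes, Pearson's r of log2(RPKM + 1) was 0.986 between the Neuron-ctrl libraries and 0.945 between E16 and E18, but 0.583 to 0.605 between Neuron-ctrl and the stages; genes are not independent replicates. Ctrl1, from a table of its own, was at 0.915 to 0.920 with Neuron-ctrl and at 0.481 to 0.574 with the stages.

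The gap between tables moved with 2 properties of the genes themselves. Genes with no exon base inside another gene's exons (7705 genes) had a median difference of 0.05, whereas the 291 genes with over 90% of their exon bases shared had a median of -3.53, and 98.6% of them were lower. Among genes that share no exon base, cut into 10 classes, the class with the lowest GC content (31.1% to 42.2%) had a median of 0.76 and the class with the highest (58.2% to 70.7%) a median of -1.11. Ctrl1 against the same E16 and E18 libraries, which both comparisons share, gave medians of 0.01 and -3.53 for the same exon classes and 0.70 and -1.26 for the same GC classes. Ctrl1 values therefore stand beside the main results below, and medians are also given after the trend with exon length and GC content was taken out (trend removed).

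**Figure D1:**
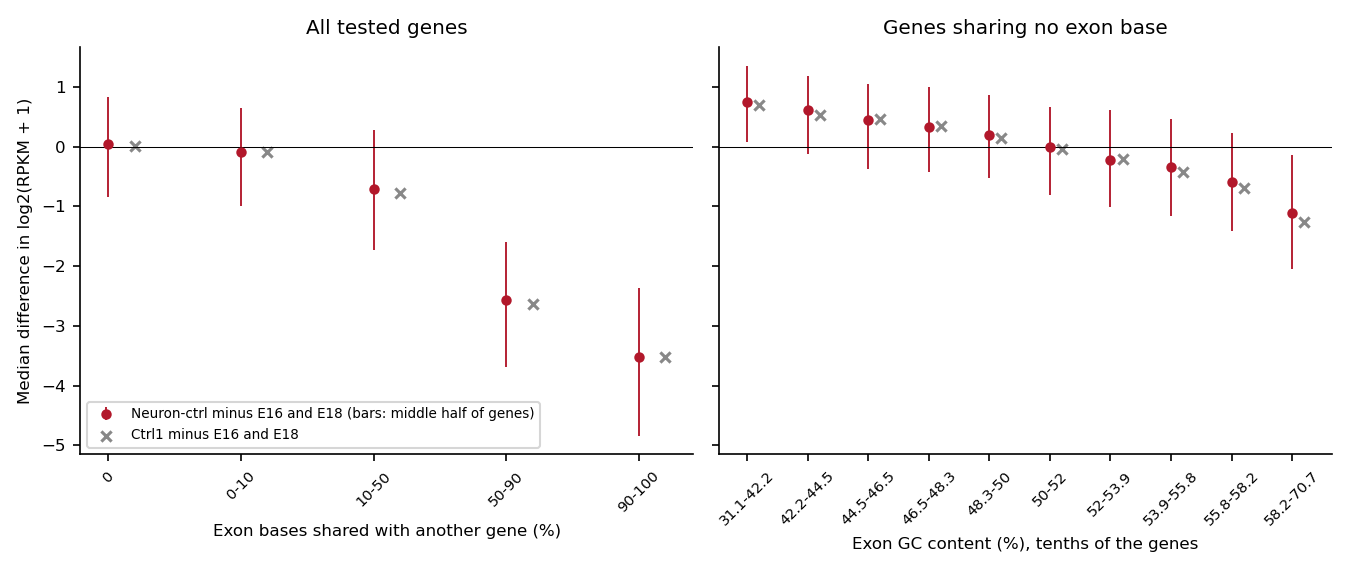
Median difference between Neuron-ctrl and the mean of E16 and E18 in log2(RPKM + 1), by the share of a gene's exon bases that other genes' exons cover and, among genes sharing none, by exon GC content; bars span the middle 50% of genes and crosses are Ctrl1. The Neuron-ctrl median is 0.05 for genes that share no exon base and -3.53 for those sharing over 90%, and Ctrl1 follows at 0.01 and -3.53.

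Of 12760 genes averaging 1 RPKM or more over the 4 libraries, 2135 (16.7%) were higher in Neuron-ctrl and 3614 (28.3%) were lower, with a median difference of -0.14. These shares, 16.7% and 28.3%, are the background for the counts of each list below. With that trend removed, the split was 2640 higher (20.8%) and 2387 lower (18.8%). Among the genes that share no exon base it was 1525 (19.8%) and 1684 (21.9%). By the same fold, 445 genes (3.49%) were higher and 400 (3.13%) lower at E18 than at E16, and 75 (0.588%) and 63 (0.494%) differed between the Neuron-ctrl libraries. Ctrl1 against E16 and E18 gave 2488 higher (19.5%) and 4012 lower (31.4%). In a further rule, added after the data were seen, both Neuron-ctrl libraries had to lie beyond E16, E18 and both Ctrl1 libraries. The 2-fold difference was then taken against the mean of all of these, so it need not hold against the stages alone. By that rule 622 genes were higher (4.87%) and 747 lower (5.85%), and not all of them are among the 2135 and 3614 above. Against Ctrl1 alone, 869 genes were higher (6.81%) and 842 lower (6.6%) in Neuron-ctrl.

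Neurod6 (Ensembl ENSMUSG00000037984, mm10 chromosome 6, 55677822 to 55681263, minus strand), a transcription factor of postmitotic excitatory neurons, had 1939 and 1962 RPKM in Neuron-ctrl, against 395 RPKM at E16 and 224 RPKM at E18. It was 6.30-fold higher than the stage mean, and Ctrl1 was also high at 1299 and 1281 RPKM. As a check of the set's name, Tubb3, the neuronal beta tubulin, had 974 and 969.9 RPKM in Neuron-ctrl, against 1633 RPKM at E16 and 2021 RPKM at E18. Map2, the dendritic microtubule protein, had 89.3 and 88.9 RPKM in Neuron-ctrl, against 36.5 RPKM at E16 and 35.9 RPKM at E18. Both were abundant in every library, Tubb3 below and Map2 above the stages in Neuron-ctrl. Ctrl1 held Tubb3 at 375 and 337 RPKM and Map2 at 74.8 and 81.5 RPKM, so both directions were shared with Ctrl1.

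On the list of upper-layer genes, 5 of 12 measured members were higher and 2 were lower, measured meaning an average of 1 RPKM or more. The shares over all tested genes were 16.7% and 28.3%. The list median was 0.74, and 1.37 with the trend removed. Among the 10 members that share no exon base, 3 were higher and 2 lower, with a median of 0.42. Mef2c, a transcription factor active in maturing upper-layer neurons, had 69.2 and 74.5 RPKM in Neuron-ctrl, against 10.3 RPKM at E16 and 22.2 RPKM at E18. Ctrl1 held Mef2c at 9.83 and 10.6 RPKM, so that Neuron-ctrl stood above all 4 other libraries. Rorb, an orphan nuclear receptor of granular-layer neurons, had 14.5 and 16.1 RPKM in Neuron-ctrl, against 2.27 RPKM at E16 and 2.56 RPKM at E18, and Ctrl1 lay between at 8.36 and 7.20 RPKM. Pou3f2 and Cux1, a POU and a cut-homeobox factor of upper-layer neurons, were higher by 2.45 and 1.58 on the log2 scale. Ctrl1 was also high for Pou3f2, at 61.4 and 56.7 RPKM, a difference of 2.06 from the same stages. It held Cux1 at 10.7 and 10.6 RPKM. Cux2, the paralogue of Cux1, had 19.5 and 19.9 RPKM in Neuron-ctrl, against 13.4 at E16 and 13.3 at E18, above both stages but under the 2-fold rule. Lhx2, a LIM-homeobox factor shared with progenitors, and the semaphorin receptor gene Plxnd1 were the members that were lower, with differences of -1.48 and -2.40. In Ctrl1 the median of the list against the same stages was -0.03.

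**Figure D2:**
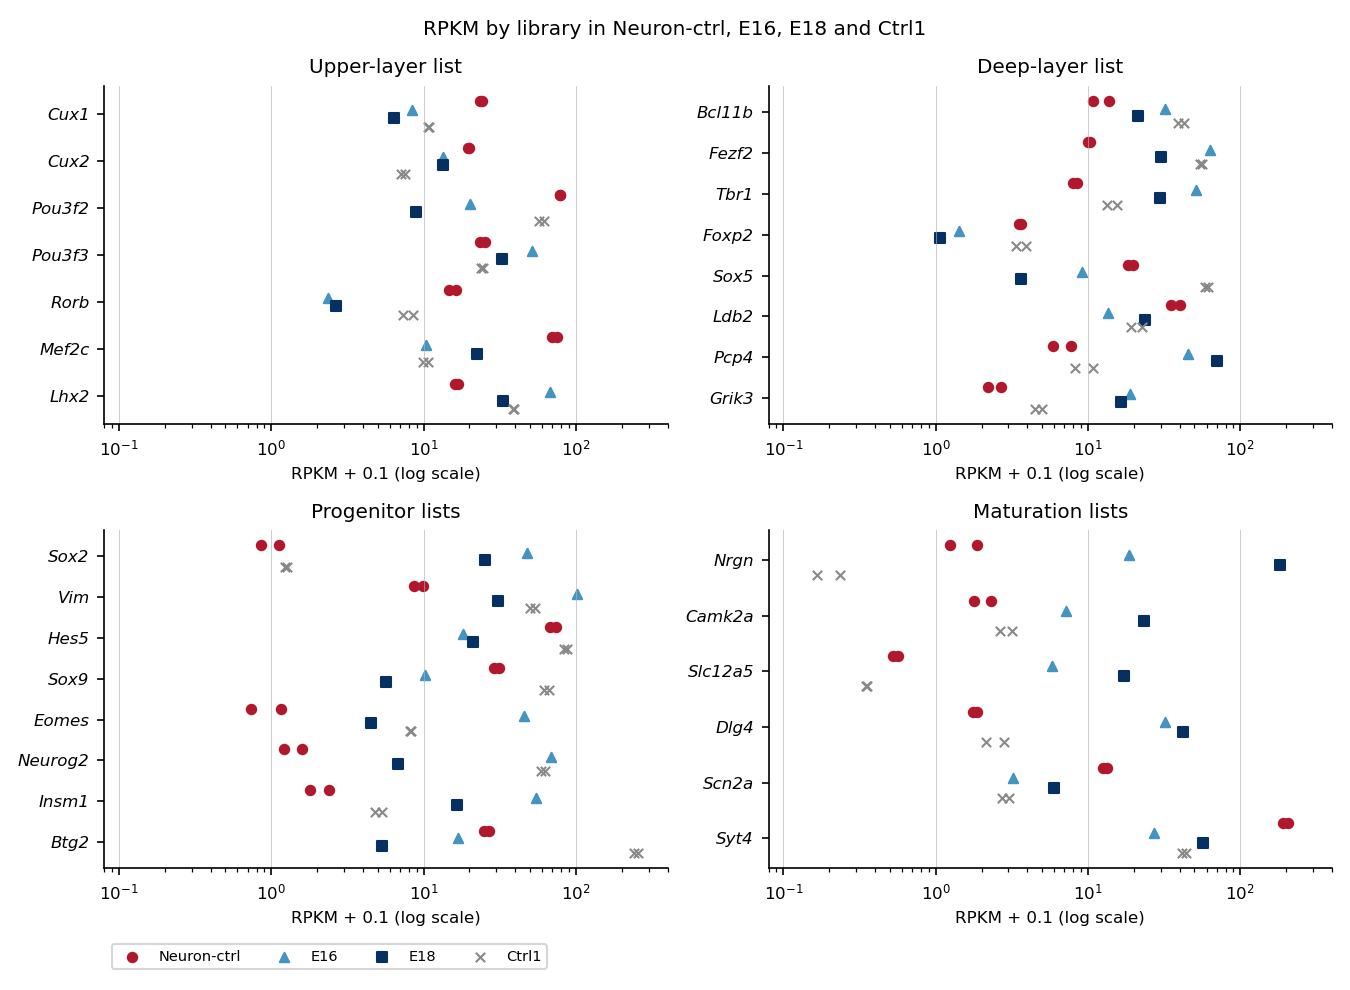
RPKM plus 0.1 on a log axis for genes of the upper-layer, deep-layer, progenitor and maturation lists, 1 symbol per library of Neuron-ctrl, E16, E18 and Ctrl1. Pou3f2 sits at 78.0 and 78.1 RPKM in Neuron-ctrl, against 20.1 RPKM at E16 and 8.85 RPKM at E18, and at 61.4 and 56.7 RPKM in Ctrl1.

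Deep-layer genes ran the other way: 3 of 12 measured members were higher and 6 were lower, beside 16.7% and 28.3% over all tested genes. The list median was -1.01, -0.92 with the trend removed and 0.27 in Ctrl1. Fezf2, which specifies neurons that project to brainstem and cord, had 9.88 and 10.3 RPKM in Neuron-ctrl, against 63.5 RPKM at E16 and 30.3 RPKM at E18. Its Neuron-ctrl libraries were 4.65-fold below the stage mean with no overlap, and Ctrl1 was at 56.2 and 54.6 RPKM. Tbr1, a T-box factor of the deepest cortical neurons, had 8.35 and 7.93 RPKM in Neuron-ctrl, against 51.0 RPKM at E16 and 29.4 RPKM at E18. Bcl11b, which acts downstream of Fezf2 in subcerebral neurons, had 10.7 and 13.6 RPKM in Neuron-ctrl, against 31.9 RPKM at E16 and 21.1 RPKM at E18. The Neuron-ctrl libraries were the lowest for both. Pcp4, a calmodulin-binding protein, Grik3, a kainate receptor subunit, and Crym, a thyroid-hormone-binding protein, were also lower. Foxp2, Sox5 and Ldb2, 3 regulators also active in deep-layer neurons, were higher by 1.06, 1.57 and 1.02. The summed upper-layer level divided by the summed deep-layer level, a ratio of RPKM within each library, was 3.60 and 3.38 in Neuron-ctrl, against 0.751 at E16 and 0.742 at E18. Ctrl1 had 0.693 and 0.687.

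Sox2, the stem cell factor of radial glia, had 1.02 and 0.761 RPKM in Neuron-ctrl, against 47.5 RPKM at E16 and 25.4 RPKM at E18, 40.9-fold lower with no overlap. Ctrl1 was as low, at 1.16 and 1.13 RPKM. Vim, the intermediate filament of radial glia, had 9.78 and 8.58 RPKM in Neuron-ctrl, against 102 RPKM at E16 and 30.5 RPKM at E18, and here Ctrl1 was high at 54.1 and 49.5 RPKM. Hes1, Notch1, Fabp7 and Dbi were lower too: a Notch effector, its receptor, a lipid carrier of radial glia and an acyl-CoA-binding protein. Hes5, another Notch effector, had 73.5 and 67.4 RPKM in Neuron-ctrl, against 18.1 RPKM at E16 and 21 RPKM at E18. Sox9, a factor of radial glia and later astrocytes, had 31.1 and 28.9 RPKM in Neuron-ctrl, against 10.1 RPKM at E16 and 5.55 RPKM at E18. These 2 genes, the endothelin receptor gene Ednrb and the cyclin gene Ccnd2 were higher. All 4 were higher still in Ctrl1, with Hes5 at 87.8 and 83.6 RPKM and Sox9 at 61.9 and 66.8 RPKM. Of the radial glia list, 4 of 20 measured members were higher and 6 were lower (21 genes were listed), near the 16.7% and 28.3% over all tested genes, with a median of -0.44, -0.05 with the trend removed and 0.57 in Ctrl1. In bulk RNA, fewer cells of a type and less RNA per cell cannot be told apart.

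Eomes, the T-box factor that marks intermediate progenitors, had 1.05 and 0.631 RPKM in Neuron-ctrl, against 45.3 RPKM at E16 and 4.41 RPKM at E18. Neurog2, a proneural factor, had 1.49 and 1.12 RPKM in Neuron-ctrl, against 68.8 RPKM at E16 and 6.69 RPKM at E18. Insm1, a zinc-finger factor of delaminating progenitors, had 1.70 and 2.29 RPKM in Neuron-ctrl, against 54.7 RPKM at E16 and 16.4 RPKM at E18. For all 3 genes the Neuron-ctrl libraries were the lowest of the 6, Ctrl1 included, and E16 was the highest of the stage pair. Btg2, an antiproliferative gene, Hes6 and the RNA-binding protein gene Elavl2 were higher, by 1.34, 1.87 and 1.94. Ctrl1 was above Neuron-ctrl for all 3, with Btg2 at 257 and 242 RPKM, Hes6 at 304 and 312 RPKM and Elavl2 at 56.9 and 56.8 RPKM. Over the list, 3 of 11 measured members were higher and 3 were lower (12 genes were listed), and its median in Ctrl1 was 1.98. In Neuron-ctrl its median of 0.21 turned to -0.45 against E16 alone and to -0.28 among genes averaging 5 RPKM or more.

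Mki67, present in cycling cells, had 4.21 and 2.51 RPKM in Neuron-ctrl, against 8.30 RPKM at E16 and 1.62 RPKM at E18. Top2a, the topoisomerase of mitotic chromosomes, had 5.99 and 5.77 RPKM in Neuron-ctrl, against 13.8 RPKM at E16 and 2.76 RPKM at E18. Both Neuron-ctrl libraries lay between E18 and E16 for these genes. The same held for 11 of 24 measured mitosis genes, while 6 lay above both stages and 2 below both. Ccnb2 and Cdk1, a mitotic cyclin and its kinase, were the 2 lower genes by the 2-fold rule, and 4 were higher. Of the DNA replication genes, 13 of 25 lay between the stages, 8 above both and 4 below both. Summed mitosis genes relative to summed pan-neuronal genes were 0.107 and 0.104 in Neuron-ctrl, against 0.162 at E16 and 0.0230 at E18, and 1.07 and 1.08 in Ctrl1. Across the 6 stages of embryonic brain, limma with Benjamini-Hochberg adjustment called 25 of 25 mitosis genes as falling with embryonic day, Top2a with slope -0.54 per day, SE 0.05, adjusted p = 0.000657.

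Dcx, a microtubule protein of migrating neurons, had 82.0 and 90.1 RPKM in Neuron-ctrl, against 70.7 RPKM at E16 and 52.7 RPKM at E18, above both stages but within 2-fold. Tubb2b, a beta tubulin of newborn neurons, had 577 and 571 RPKM in Neuron-ctrl, against 2406 RPKM at E16 and 2579.6 RPKM at E18. Basp1, a growth cone membrane protein, had 54.7 and 55.4 RPKM in Neuron-ctrl, against 519 RPKM at E16 and 709 RPKM at E18. Both were lower with no overlap, and Ctrl1 was lower still at 252 and 233 RPKM for Tubb2b and 36.3 and 34.5 RPKM for Basp1. Gap43, the growth cone protein of extending axons, had 741 and 789 RPKM, against 303 at E16 and 745 at E18, no call. Over the list of newborn and migrating neurons, 1 of 20 measured members was higher and 7 were lower, the higher one being Neurod6. Its median of -0.16 was 0.13 with the trend removed and 0.02 with upper-quartile scaling, so its direction depends on the setting. Of the pan-neuronal list, 3 of 16 measured members were higher and 6 were lower (17 genes were listed), beside 16.7% and 28.3% over all tested genes. The pan-neuronal median was -0.53, but 0.27 among the genes that share no exon base. Ncam1, the neural cell adhesion molecule, had 162 and 175 RPKM in Neuron-ctrl, against 55.9 RPKM at E16 and 86.8 RPKM at E18, and exceeded Ctrl1 as well, at 55.3 and 58.8 RPKM. Thy1, a surface protein of later neurons, had 0.553 and 0.369 RPKM, against 3.52 at E16 and 28.6 at E18, below both stages.

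The presynaptic genes were split. Syt4, a vesicle protein of dense-core granules, had 190.5 and 206 RPKM in Neuron-ctrl, against 27.0 RPKM at E16 and 56.8 RPKM at E18. Syn1, a synaptic vesicle phosphoprotein, had 121 and 106 RPKM in Neuron-ctrl, against 35.9 RPKM at E16 and 76.1 RPKM at E18. Both were higher in both Neuron-ctrl libraries than in E16, E18 or either Ctrl1 library. Slc17a7, the vesicular glutamate transporter VGLUT1, had 0.639 and 0.820 RPKM in Neuron-ctrl, against 17.2 RPKM at E16 and 32 RPKM at E18, 33.7-fold lower. Stx1a, a release syntaxin, and Syp, a vesicle membrane protein, had differences of -2.90 and -2.0. Snap25, the membrane partner of the syntaxins, had 43.4 and 42.8 RPKM, against 25.1 at E16 and 36.8 at E18, above both stages but under the 2-fold rule. Of the vesicle release list, 3 of 23 measured members were higher and 10 were lower, beside 16.7% and 28.3% over all tested genes. The list median was -0.67, -0.29 with the trend removed and -1.58 in Ctrl1.

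Dlg4, the postsynaptic scaffold PSD-95, had 1.78 and 1.67 RPKM in Neuron-ctrl, against 31.7 RPKM at E16 and 41.7 RPKM at E18. Shank1, another scaffold, had 2.36 and 2.05 RPKM in Neuron-ctrl, against 27.2 RPKM at E16 and 43.9 RPKM at E18. The Neuron-ctrl and stage values did not overlap for either gene. Ctrl1 was near Neuron-ctrl for Dlg4, at 2.69 and 2.03 RPKM, and lower still for Shank1, at 0.721 and 0.895 RPKM. Gria2, the AMPA receptor subunit that limits calcium entry, and Nlgn1, an adhesion partner of neurexins, were higher, Gria2 with 39.1 and 37.6 RPKM in Neuron-ctrl, against 21.5 RPKM at E16 and 15.3 RPKM at E18. For the list, 2 of 22 measured members were higher and 10 were lower (23 genes were listed), beside 16.7% and 28.3% over all tested genes. The list median was -0.78, -0.61 with the trend removed and -1.16 in Ctrl1.

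Genes that start late in neuronal maturation were mostly below both stages. Nrgn (Ensembl ENSMUSG00000053310, mm10 chromosome 9, 37544492 to 37552904, minus strand), a calmodulin-binding protein of dendrites, had 1.14 and 1.77 RPKM in Neuron-ctrl, against 18.6 RPKM at E16 and 183 RPKM at E18. The E18 library stood out for this gene, and its rise over the stages passed limma's test (slope 0.81 per day, SE 0.11, adjusted p = 0.00139). Slc12a5, the chloride exporter KCC2, had 0.426 and 0.464 RPKM in Neuron-ctrl, against 5.74 RPKM at E16 and 17.1 RPKM at E18. Its Neuron-ctrl libraries did not overlap with the stages. Scn2a, an axonal sodium channel, had 12.5 and 13.2 RPKM in Neuron-ctrl, against 3.13 RPKM at E16 and 5.87 RPKM at E18. It was higher than both stages and than Ctrl1. Over the list, 2 of 17 measured members were higher and 9 were lower (25 genes were listed), beside 16.7% and 28.3% over all tested genes. The list median was -1.25, -0.48 with the trend removed and -1.74 in Ctrl1. The median difference of the same genes between E18 and E16 was 0.73.

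Log2 ratios of a late to an early partner, each as RPKM + 1, were taken within each library. The ratio of Slc12a5 over Slc12a2, the chloride exporter over the importer, was -1.34 and -1.14 in Neuron-ctrl, against 0.57 at E16 and 2.26 at E18. VGLUT1 over VGLUT2, Slc17a7 over Slc17a6, was -3.05 and -2.72 in Neuron-ctrl, against 1.14 at E16 and 2.55 at E18. Actl6b over Actl6a, the neuronal over the progenitor actin-like subunit of the BAF chromatin complex, was 0.03 and 0.53 in Neuron-ctrl, against 1.40 at E16 and 2.94 at E18. These 3 ratios were below both stages in both Neuron-ctrl libraries. Ctrl1 was below both stages as well, with -1.12 and -1.28 for the first, -3.49 and -3.11 for the second and -2.47 and -2.49 for the third. The late partners had a GC content of 57.9%, 56.5% and 57.3%, against 42.3%, 45.2% and 48.9% in the early ones, and the part of GC content in these ratios was not tested.

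Of the pairs described here, another 3 lay above both stages. Ptbp2 over Ptbp1, the neuronal over the progenitor splicing repressor, was 0.69 and 0.98 in Neuron-ctrl, against -0.46 at E16 and -0.20 at E18. Dpf1 over Phf10, a BAF subunit pair, was 1.72 and 1.58 in Neuron-ctrl, against 1.18 at E16 and 1.49 at E18. Nefl over Vim, a neuronal over a progenitor filament, was -0.20 and 0.13 in Neuron-ctrl, against -3.32 at E16 and -0.45 at E18. All 3 were higher at E18 than at E11 in the stage course. In Ctrl1 all 3 were below both E16 and E18, with Ptbp2 over Ptbp1 at -0.66 and -0.84. The GC content was 40.4% for Ptbp2 and 55.3% for Ptbp1, and 58.5% for Dpf1 and 43.7% for Phf10. Ptbp1 shares 20.7% of its exon bases and Nefl 32.8%. The part of these properties in the 3 ratios was not tested. Grin2a over Grin2b, the late over the early NMDA receptor subunit, was -2.75 and -3.01 in Neuron-ctrl, against -2.31 at E16 and -2.62 at E18, below both stages and with Grin2a under 1 RPKM in these 4 libraries. In all, 7 of 14 ratios in Neuron-ctrl were at or above the lower of E16 and E18, and 10 when a pseudocount of 0.1 replaced 1.

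**Figure D3:**
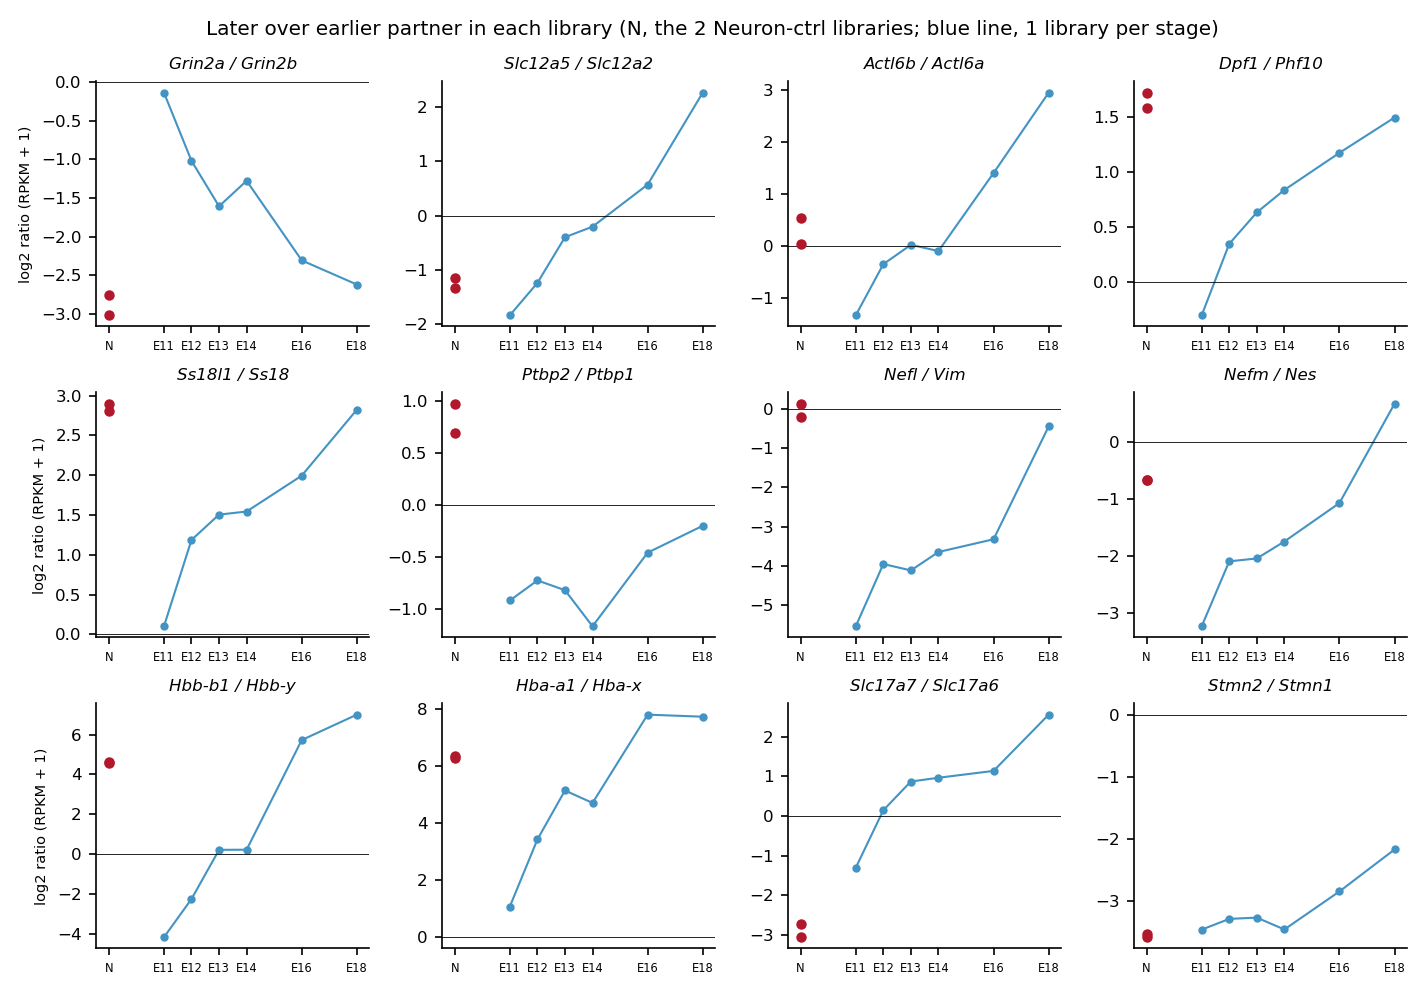
Log2 ratio of the later to the earlier partner, each as RPKM + 1, of 12 of the 14 gene pairs, with both Neuron-ctrl libraries at the left and the stages placed by embryonic day from E11 to E18. Slc12a5 over Slc12a2 is -1.34 and -1.14 in Neuron-ctrl and 2.26 at E18, whereas Ptbp2 over Ptbp1 is 0.69 and 0.98 in Neuron-ctrl and -0.20 at E18.

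Activity-regulated genes did not move as a group: 5 of 17 measured members were higher and 6 were lower (23 genes were listed), with a median of -0.36 that turned to 0.98 among genes averaging 5 RPKM or more. Inhba, encoding activin A, had 24.9 and 25.1 RPKM in Neuron-ctrl, against 0.937 RPKM at E16 and 1.57 RPKM at E18. Egr1, an immediate-early transcription factor, had 8.96 and 7.63 RPKM in Neuron-ctrl, against 0.894 RPKM at E16 and 2.44 RPKM at E18. Both exceeded E16, E18 and both Ctrl1 libraries, Ctrl1 holding Inhba at 2.04 and 1.40 RPKM. Fos, the immediate-early AP-1 subunit, had 3.19 and 6.22 RPKM in Neuron-ctrl, against 0.406 RPKM at E16 and 0.790 RPKM at E18. Ctrl1 was above Neuron-ctrl for Fos, at 11.1 and 10.9 RPKM. Vgf, a secreted neuropeptide precursor, had 0.466 and 0.279 RPKM, against 3.5 at E16 and 19.9 at E18. Nr4a1, an orphan nuclear receptor, had 0.382 and 0.0131 RPKM, against 3.22 at E16 and 4.49 at E18. Npas4, the neuron-specific activity factor, was at 0 in 1 of the Neuron-ctrl libraries.

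Cajal-Retzius genes, of the reelin-secreting neurons at the cortical surface, were below the stages. All 8 measured members of 11 lay below both stages in both Neuron-ctrl libraries, 6 by the 2-fold rule. Over all tested genes 28.3% were lower by that rule. The list median was -1.44, -1.08 with the trend removed and -0.94 in Ctrl1. Among the 4 members that share no exon base 2 were lower, with a median of -0.80. Reln, encoding reelin, had 1.62 and 2.21 RPKM in Neuron-ctrl, against 9.39 RPKM at E16 and 7.40 RPKM at E18. Trp73, a p53-family factor, had 0.468 and 0.706 RPKM in Neuron-ctrl, against 4.91 RPKM at E16 and 2.63 RPKM at E18. Neither overlapped with the stages.

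Interneuron genes were present at mixed levels. Dlx1, a homeobox factor of ventral-born interneurons, had 48.7 and 48.9 RPKM in Neuron-ctrl, against 40.2 RPKM at E16 and 39.4 RPKM at E18. Lhx6, which guides their migration, had 24.4 and 25.9 RPKM, against 19.8 at E16 and 22.5 at E18. Neither was called, and both were lower in Ctrl1, at 17.0 and 16.8 RPKM and 7.46 and 5.83 RPKM. Sst, the somatostatin precursor, had 10.3 and 9.38 RPKM in Neuron-ctrl, against 125 RPKM at E16 and 244 RPKM at E18. Slc32a1, the vesicular GABA transporter, had 0.448 and 0.0987 RPKM in Neuron-ctrl, against 13.2 RPKM at E16 and 22.2 RPKM at E18. Both were lower with no overlap, as was the GABA-synthesising enzyme gene Gad1, while its paralogue Gad2 had 11.7 and 11.0 RPKM, against 8.79 at E16 and 8.25 at E18. Ctrl1 was lower still for Sst, at 4.20 and 3.82 RPKM, and for Slc32a1 and Gad1. Nkx2-1 and Lhx8, regulators of the medial ganglionic eminence, were under 0.3 RPKM in Neuron-ctrl, against 3.12 and 2.37 RPKM of Nkx2-1 at E16 and E18. For the list, 2 of 20 measured members were higher and 6 were lower, beside 16.7% and 28.3% over all tested genes. The list median was -0.63, but 0.11 among genes averaging 5 RPKM or more, and -1.60 in Ctrl1. With the trend removed it was -0.25, with 4 members higher and 4 lower.

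Regional markers were those of the forebrain, with posterior markers at or near 0. Emx1, a dorsal cortical homeobox factor, had 9.77 and 9.25 RPKM in Neuron-ctrl, against 31.5 RPKM at E16 and 16.1 RPKM at E18. It was lower in Neuron-ctrl, although the difference was 0.32 with the trend removed. Nr2f1, a factor of caudal and ventrolateral areas, had 2.62 and 2.68 RPKM in Neuron-ctrl, against 58.7 RPKM at E16 and 35.9 RPKM at E18, and Ctrl1 was equally low at 2.12 and 2.45 RPKM. Of the regional list, 2 of 12 measured members were higher and 8 were lower, Neurod6 being among the higher ones, with a median of -1.34 and -0.74 with the trend removed. Of 43 genes that mark diencephalon, midbrain, hindbrain or cord, 32 were at 0 in both Neuron-ctrl libraries, against 16 at 0 in both stages. The Neuron-ctrl libraries held fewer reads than the stages, so these counts of 0 were not taken at equal depth. The summed level of these 43 genes was 1.47 and 1.77 RPKM in Neuron-ctrl, against 13.2 RPKM at E16 and 10.2 RPKM at E18. Ctrl1 was also low, at 2.76 and 3.32 RPKM. Zic1, a zinc-finger factor of septum, midline and cerebellum, was the only member above the filter, with 0 and 0.0162 RPKM, against 7.01 at E16 and 4.01 at E18, and every Hox gene on the list was at 0 in Neuron-ctrl.

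Several microglial genes were higher than at E16 and E18. C1qa, a complement subunit made by microglia, had 66.8 and 60.0 RPKM in Neuron-ctrl, against 5.67 RPKM at E16 and 8.77 RPKM at E18, 8.78-fold higher, and Ctrl1 exceeded both at 207 and 197 RPKM. Cx3cr1, the fractalkine receptor, had 5.34 and 6.69 RPKM in Neuron-ctrl, against 2.04 RPKM at E16 and 1.77 RPKM at E18. Tmem119, a homeostatic microglial membrane protein, had 6.61 and 5.79 RPKM in Neuron-ctrl, against 1.08 RPKM at E16 and 1.24 RPKM at E18. The groups did not overlap for these 3 genes. Of the list, 5 of 14 measured members were higher and 0 were lower (18 genes were listed), beside 16.7% and 28.3% over all tested genes. The list median was 0.75, 1.31 with the trend removed and 2.49 in Ctrl1. The summed level was 167 and 174 RPKM in Neuron-ctrl, against 63.8 RPKM at E16 and 78.2 RPKM at E18, and 572 and 531 RPKM in Ctrl1. Relative to the pan-neuronal sum it was 0.102 and 0.107 in Neuron-ctrl, against 0.0434 at E16 and 0.0333 at E18. None of the 18 genes was at 0 in both Neuron-ctrl libraries. The part of these cells in other differences was not tested.

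Of the astrocyte list, 1 of 12 measured members was higher and 2 were lower (16 genes were listed), and the median of -0.25 changed sign with the trend removed, at 0.06. Its summed level was 389.6 and 401 RPKM in Neuron-ctrl, against 168 RPKM at E16 and 383 RPKM at E18. Apoe, the lipid carrier of astrocytes and microglia, had 189 and 203 RPKM in Neuron-ctrl, against 25.5 RPKM at E16 and 129.8 RPKM at E18. Ctrl1 was also high for Apoe, at 205 and 204 RPKM. Slc1a2, the astrocytic glutamate transporter, had 0.545 and 0.582 RPKM, against 3.91 at E16 and 6.44 at E18. Gfap, the astrocyte filament, had 0.954 and 1.94 RPKM, against 0.60 at E16 and 7.94 at E18, which lies between the stages. Aqp4, the astrocytic water channel, had 1.85 and 1.33 RPKM, against 0.153 at E16 and 1.31 at E18. Of the oligodendrocyte lineage, Olig1, a lineage factor, had 47.5 and 44.2 RPKM, against 8.27 at E16 and 44.0 at E18, while its partner Olig2 had 1.01 and 1.31 RPKM, against 5.15 at E16 and 18.3 at E18. The call of Olig1 rests on E16, since E18 was close to both Neuron-ctrl libraries. The myelin gene Mbp had 2.19 and 1.94 RPKM, against 1.87 at E16 and 3.51 at E18. The lineage median was -0.35, and 0.33 with the trend removed. Summed over 15 genes, the lineage had 66.1 and 68.6 RPKM in Neuron-ctrl, against 38.5 RPKM at E16 and 109 RPKM at E18.

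Genes of vessels, blood and choroid plexus were mostly below the stages. Ramp2, a receptor-modifying protein of endothelium, had 0.962 and 1.21 RPKM in Neuron-ctrl, against 22.2 RPKM at E16 and 29.3 RPKM at E18. Pecam1, the endothelial adhesion molecule, had 0.144 and 0.377 RPKM in Neuron-ctrl, against 2.28 RPKM at E16 and 2.78 RPKM at E18. Cldn5, the tight-junction claudin of the blood-brain barrier, had 18.0 and 17.4 RPKM, against 23.5 at E16 and 30.3 at E18, whereas Ctrl1 had 0 and 0.0671 RPKM. Of the endothelial list, 0 of 13 measured members were higher and 7 were lower (18 genes were listed), beside 16.7% and 28.3% over all tested genes. Its summed levels were 75.5 and 70.6 RPKM in Neuron-ctrl, against 108 RPKM at E16 and 139.8 RPKM at E18. The endothelial median was -1.11, and -1.91 in Ctrl1. With the trend removed it was -0.66, with 1 member higher and 3 lower. Pericyte genes had a median of -0.91, with 4 of 8 lower, and summed levels of 18.2 and 16.7 RPKM in Neuron-ctrl, against 35.7 RPKM at E16 and 39.9 RPKM at E18. The pericyte median was -0.24 with the trend removed, with 2 members lower, and -1.63 in Ctrl1. Of 19 meningeal and fibroblast genes, 6 passed the filter, 2 were lower and 5 were at 0 in both Neuron-ctrl libraries. Igf2 was at 0 in both Neuron-ctrl libraries, against 8.99 RPKM at E16 and 8.19 RPKM at E18, but shares 64.5% of its exon bases.

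The measured haemoglobin transcripts lay below both stages in Neuron-ctrl. Of the erythroid list, 5 of 8 measured members were lower and 0 were higher, with a median of -1.91. With the trend removed the median was -0.79, with 3 members lower. Alas2 and Fech were not among the lower genes, and a difference in blood content was not tested. Hba-a1, an adult alpha globin, had 75.9 and 80.8 RPKM in Neuron-ctrl, against 596 RPKM at E16 and 209 RPKM at E18. Hbb-b1, an adult beta globin, had 23.8 and 23.0 RPKM in Neuron-ctrl, against 449 RPKM at E16 and 149 RPKM at E18. The globin genes have near-identical copies that counting can split. Neuron-ctrl was below both stages, E18 below E16, and Ctrl1 held only 3.25 and 8.43 RPKM of Hba-a1. Hbb-y, an embryonic beta-like globin, was at 0 in both Neuron-ctrl libraries, against 7.50 RPKM at E16 and 0.174 RPKM at E18. The summed erythroid level was 126 and 131 RPKM in Neuron-ctrl, against 1203 RPKM at E16 and 436 RPKM at E18, and relative to the pan-neuronal sum it was 0.0768 and 0.0810 in Neuron-ctrl, against 0.818 at E16 and 0.186 at E18. Ttr, the transthyretin gene of choroid plexus, was at 0 in both Neuron-ctrl and both Ctrl1 libraries, against 20.1 RPKM at E16 and 107 RPKM at E18. At a floor of 3 reads per library this is at least 553-fold lower in Neuron-ctrl. Of 16 erythroid genes with a value 8 were at 0 in both Neuron-ctrl libraries, and of 17 choroid and ependymal genes 9. The part of these cell types in other differences was not tested.

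**Figure D4:**
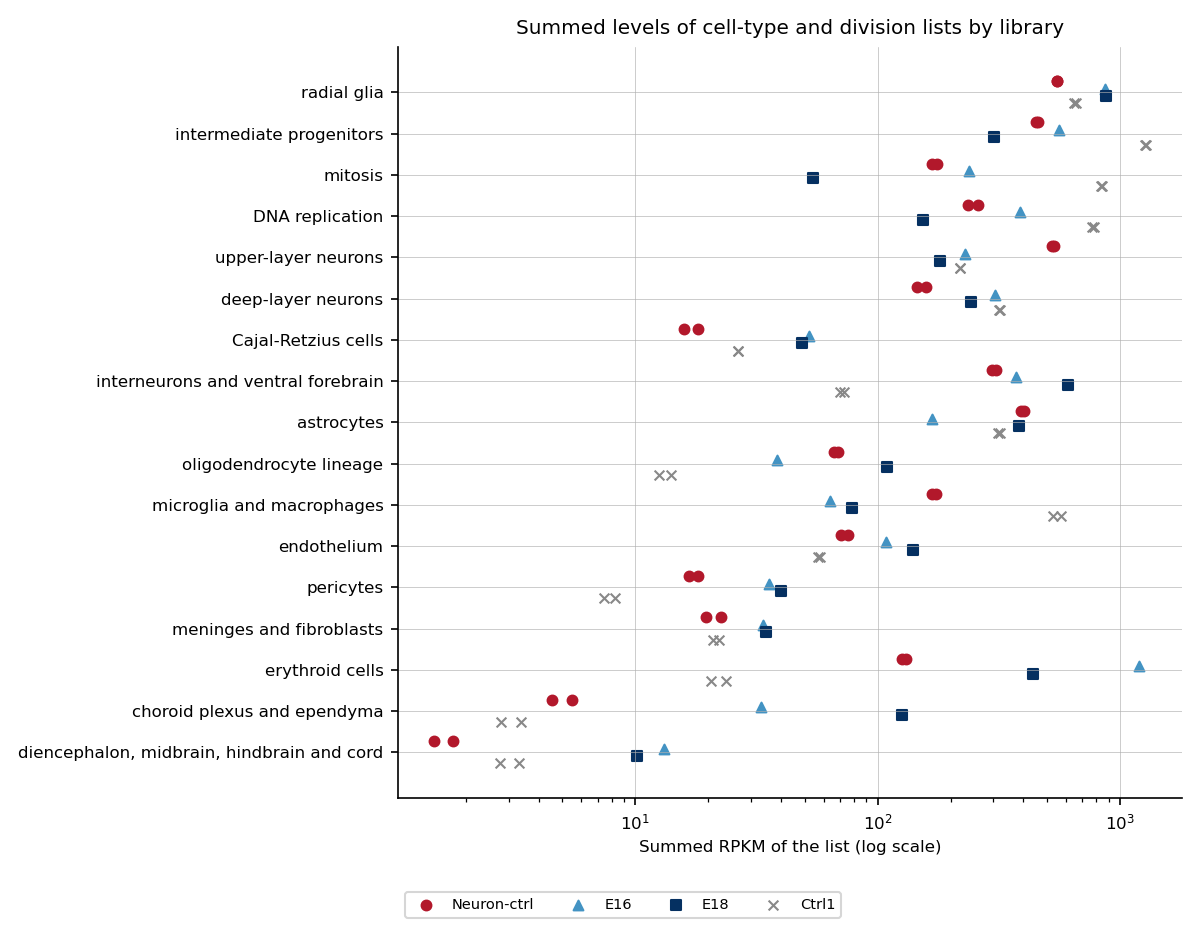
Summed RPKM of each cell-type or division list on a log axis, 1 symbol per library of Neuron-ctrl, E16, E18 and Ctrl1. Microglial genes sum to 167 and 174 RPKM in Neuron-ctrl, against 63.8 RPKM at E16 and 78.2 RPKM at E18, and erythroid genes to 126 and 131 RPKM in Neuron-ctrl, against 1203 RPKM at E16 and 436 RPKM at E18.

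Several cholesterol synthesis genes were higher in Neuron-ctrl. Sqle, squalene epoxidase, had 112 and 112 RPKM in Neuron-ctrl, against 22.4 RPKM at E16 and 32.9 RPKM at E18. Idi1, the isopentenyl diphosphate isomerase, had 29.6 and 31.2 RPKM in Neuron-ctrl, against 3.94 RPKM at E16 and 3.39 RPKM at E18. Neither overlapped with the stages, and Ctrl1 was intermediate for Sqle, at 59.3 and 59.1 RPKM, and level with Neuron-ctrl for Idi1, at 28.8 and 30.5 RPKM. Fdps, farnesyl diphosphate synthase, was lower, with 26.7% of exon bases shared. For the list, 8 of 21 measured members were higher and 2 were lower (22 genes were listed), beside 16.7% and 28.3% over all tested genes. The list median was 0.75, 0.84 with the trend removed and -0.05 in Ctrl1.

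Peroxisome and ether lipid genes, the pathway named in the study's title, showed no shared direction. Of the list, 6 of 28 measured members were higher and 3 were lower (34 genes were listed), beside 16.7% and 28.3% over all tested genes. The list median of 0.15 was -0.01 among genes sharing no exon base. Gnpat, which starts ether lipid synthesis, had 61.2 and 45 RPKM in Neuron-ctrl, against 24.1 RPKM at E16 and 18.6 RPKM at E18. Far1, which supplies its fatty alcohol, had 14.8 and 15.2 RPKM in Neuron-ctrl, against 7.24 RPKM at E16 and 5.69 RPKM at E18. Pex13, part of the import machinery of peroxisomes, and Cat, catalase, were higher as well, by 1.83 and 1.5, and Ctrl1 was also above both stages for these 4 genes. Peds1, the plasmanylethanolamine desaturase, had 1.97 and 2.16 RPKM, against 11.4 at E16 and 14.8 at E18. Pex7, the import receptor knocked down elsewhere in the study, had 0.777 and 0.601 RPKM, against 1.18 at E16 and 1.32 at E18. Plaat3, the overexpressed phospholipase, had 0.0699 and 0.230 RPKM, against 0.601 at E16 and 0.276 at E18. Both stayed under the filter of 1 RPKM.

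Stress and energy genes were mixed. Asns, asparagine synthetase and a target of ATF4, had 78.7 and 87.9 RPKM in Neuron-ctrl, against 10.5 RPKM at E16 and 19.8 RPKM at E18. Ctrl1 was also high for Asns, at 86.5 and 91.7 RPKM. Atf4 itself had 54.0 and 62.1 RPKM in Neuron-ctrl, against 79.6 at E16 and 76.5 at E18. Over the integrated stress response list, 5 of 18 measured members were higher and 3 were lower (22 genes were listed), with a median of 0.35 and 0.86 in Ctrl1. Most interferon genes were low in Neuron-ctrl and the stages, 7 of 25 passing the filter with a median of 0.07, whereas Ctrl1 had a median of 3.06. Bst2, an interferon-induced membrane protein, had 6.44 and 3.62 RPKM, against 0.925 at E16 and 2.61 at E18, and 144 and 128 RPKM in Ctrl1. Of the glycolysis and hypoxia list, 4 of 24 measured members were higher and 4 were lower (25 genes were listed), with a median of 0.08. The shares over all tested genes were 16.7% and 28.3%. Pgk1, phosphoglycerate kinase, had 154 and 150.03 RPKM, against 75.6 at E16 and 70.3 at E18, while Vegfa, a hypoxia-induced growth factor, had 0.449 and 0.440 RPKM, against 14.4 at E16 and 24.7 at E18.

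Housekeeping classes with extreme differences were also low in Ctrl1. Of 37 cytosolic ribosomal protein genes 30 were lower and 0 higher, with a median of -2.36, -2.08 with the trend removed and -2.69 in Ctrl1. Rpl4 had 809.8 and 769 RPKM, against 595 at E16 and 471 at E18. Rpl24 had 1.22 and 0.804 RPKM, against 391 at E16 and 359 at E18. Of 13 mitochondrially encoded mRNAs 11 were lower, with a median of -3.03 and -2.50 in Ctrl1, although CYTB, cytochrome b, had 5113 and 5004 RPKM, against 4653 at E16 and 6307 at E18. Rny1 and Rny3, short Y RNAs, were at 0 in both Neuron-ctrl and both Ctrl1 libraries, and all 4 measured short structured RNAs were lower. Many of these genes have near-identical pseudogenes or short transcripts, and their levels are uncertain.

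**Figure D5:**
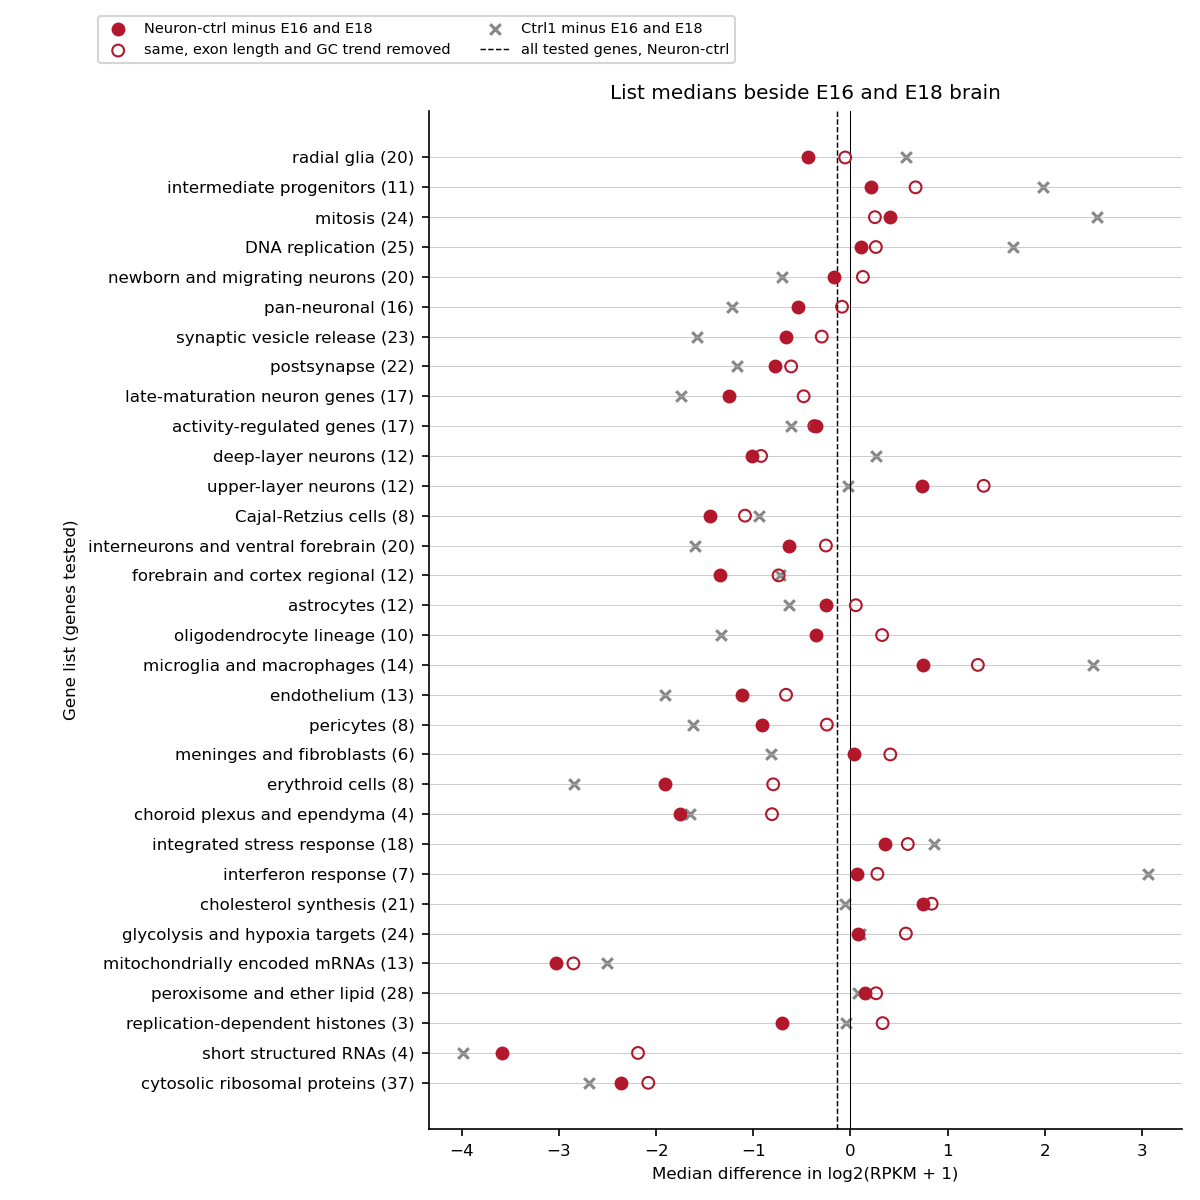
Median difference of each gene list between Neuron-ctrl and the mean of E16 and E18 in log2(RPKM + 1), with the trend-removed median and the Ctrl1 median beside it and the median of all genes as a line at -0.14. Upper-layer genes stand at 0.74, microglial genes at 0.75, deep-layer genes at -1.01 and ribosomal protein genes at -2.36.

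The 10 genes with the largest positive differences were led by a cadherin. Cdh12, an adhesion molecule, had 20.7 and 21.6 RPKM in Neuron-ctrl, against 0.341 RPKM at E16 and 0.373 RPKM at E18, a difference of 4.03, and Ctrl1 had 0.907 and 0.942 RPKM. Lratd1 was second, with 184 and 198 RPKM, against 17.0 at E16 and 13.7 at E18. Inhba and Dhrs3, a retinaldehyde reductase, followed, at 3.54 and 3.10, and the 10 also held Zfp382, Gabrb2, Hs6st2, Nrp1 and Ythdf2. Gabrb2, a GABA-A receptor subunit, had 9.11 and 11.1 RPKM, against 0.338 at E16 and 0.333 at E18. Nrp1, the semaphorin receptor, and Ythdf2, a reader of methylated adenosine, were as high in Ctrl1, at 20.6 and 21.5 RPKM and 109 and 106 RPKM. The largest negative differences included Snurf, Rps18-ps6, Rpl24, Pcdhga10, Cacng7, Fam89b, Pcdhga1 and Gnas. Snurf was at 0 in both Neuron-ctrl libraries, against 377 RPKM at E16 and 652 RPKM at E18, and shares all of its exon bases with another gene. Cacng7, an AMPA receptor auxiliary subunit that shares none, had 0.0366 and 0 RPKM, against 125 at E16 and 124 at E18. In Ctrl1 each of these 8 genes was under 1.1 RPKM in both libraries.

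Among genes sharing no exon base, 451 were higher (5.85%) and 362 lower (4.7%) by the rule against the stages and both Ctrl1 libraries together. The genes named here were chosen from them after the values were seen. Ntf3, the neurotrophin NT-3, had 39.7 and 41.2 RPKM in Neuron-ctrl, against 2.30 RPKM at E16 and 7.75 RPKM at E18. Tafa2, a secreted protein of neurons, had 79.2 and 82.0 RPKM in Neuron-ctrl, against 8.21 RPKM at E16 and 16.1 RPKM at E18. Klf6, a zinc-finger transcription factor, had 60.8 and 59.9 RPKM, against 6.01 at E16 and 10.1 at E18. Npy1r, a neuropeptide Y receptor, had 12.8 and 12.3 RPKM, against 1.40 at E16 and 4.87 at E18. Ctrl1 held Ntf3 at 0.485 and 0.998 RPKM and Tafa2 at 3.44 and 3.09 RPKM, below both stages for each gene. On the lower side stood Neurog2, Vim, Sox2, Insm1 and Fezf2 from the lists above. Sox2, at 1.02 and 0.761 RPKM, was close to its Ctrl1 level of 1.16 and 1.13 RPKM, so its call rests on the stages. Nr2e1, a nuclear receptor of neural stem cells, was also lower, with 2.06 and 1.65 RPKM, against 14.6 at E16 and 4.80 at E18. Nrp2, a semaphorin receptor, had 0.397 and 0.272 RPKM, against 11.9 at E16 and 12.0 at E18. Hap1, a huntingtin-associated protein, had 1.96 and 1.67 RPKM, against 19.2 at E16 and 43.3 at E18.

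Neuron-ctrl was also placed among the 6 stages through genes that limma called along embryonic day, a test that does not use Neuron-ctrl. Of 12921 genes tested, 2528 rose (19.6%) and 3300 fell (25.5%) from E11 to E18 at an adjusted p under 0.05. Without the E18 library, 1270 rose and 1267 fell. Of the rising genes, Neuron-ctrl lay above E18 in 25.8%, between E11 and E18 in 39.2% and below E11 in 35%. Among rising genes that share no exon base the balance turned, with 29.5% above E18 and 26.9% below E11. Of the falling genes, Neuron-ctrl lay above E11 in 23.5%, between in 35.9% and below E18 in 40.6%. Over rising genes the median absolute difference from Neuron-ctrl was 1.09 for E11, 0.99 for E12, 0.98 for E13, 0.985 for E14, 0.97 for E16 and 1.17 for E18, so that E12 to E16 were nearly level. Over falling genes it was 1.09 for E11, 0.99 for E12, 0.89 for E13, 0.90 for E14, 0.76 for E16 and 0.83 for E18.

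By list, the placement is set beside that of all rising genes, which was 25.8% above E18, 35% below E11 and 39.2% between. Of 22 vesicle release genes that rose with stage, Neuron-ctrl was above E18 for 7, below E11 for 6 and between for 9. Of 18 rising postsynaptic genes it was above E18 for 4, below E11 for 5 and between for 9, and of 14 rising late-maturation genes for 3, 4 and 7. On so few genes, a difference of these lists from all rising genes or from each other was not tested. Of 6 upper-layer genes that rose with stage, 5 were above E18, among them Mef2c (slope 0.51 per day, SE 0.04, adjusted p = 0.000652). Of 10 rising microglial genes 7 were above E18. Of 25 falling mitosis genes Neuron-ctrl lay between E11 and E18 for 23 and below E18 for 2. Sox2 fell with stage (slope -0.33 per day, SE 0.03, adjusted p = 0.000652) and stood below its E18 level in Neuron-ctrl, while Syt4 rose (slope 0.41 per day, SE 0.08, adjusted p = 0.00735) and stood above it.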

How the data were processed

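RNA sequencing of 2 Neuron-ctrl libraries, E16 and E18 brain, and for reference Ctrl1 and E11 to E14, was read from the authors' tables. The deposited values are taken as RPKM, from the values themselves, since no header names the unit: 97.6% to 97.7% came out as whole reads within 0.01 when multiplied by exon length. In E16 and E18 53.6% and 55.1% of the read numbers were even, against 48.4% and 48.3% in Neuron-ctrl. The submitters' processing notes name STAR 2.7.9a, HTSeq 0.6.0 and the build mm10; a strand setting is not given in the sources used here. Of 32941 genes, 32009 (97.2%) matched a merged exon length of GENCODE M21, which also gave coordinates, GC content and exon sharing. The count test that whole reads would allow was not used between the tables, since table and source coincide.

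Genes averaging 1 RPKM or more were kept and compared as log2(RPKM + 1). Higher and lower calls need all pairs of libraries beyond each other and a 2-fold difference. The length and GC trend was fitted across genes with a spline and subtracted. Slopes on embryonic day were tested with limma 3.58.1 in R 4.3.3 (trend, two-sided, Benjamini-Hochberg), checked on simulated data. Python 3.11.15, pandas 2.3.3, numpy 2.4.6, patsy 1.0.2 and matplotlib 3.10.9 were used. Named genes are the 10 largest differences on each side averaging 5 RPKM or more, up to 4 members of largest difference and the first 4 of each list, the partners of 14 pairs, Pex7 and Plaat3; others were chosen after their values were seen. Some genes counted in these lists and pairs are not reported here by name. The libraries, members and gene lists were chosen with earlier results of these data known. With 2 Neuron-ctrl libraries and 1 per stage, the spread within a stage is unknown, and the spread between Neuron-ctrl libraries may be technical. A floor of 3 reads covers counting error only. Alternatives covered the pseudocount, filter, scaling, fold rule, trend, exon sharing, each left-out library and Ctrl1.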

Additional observations from a re-analysis of the deposited data

How the results depend on the processing

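The counts depended most on the fold rule and on the gap between tables. Genes higher in Neuron-ctrl numbered 2135, and 1119 with a pseudocount of 5, 3537 by a 1.5-fold rule, 281 by a 4-fold rule and 1360 among genes sharing no exon base with the trend removed. Against E16, E18 and both Ctrl1 libraries together they numbered 622, and 451 among genes sharing no exon base. Genes lower numbered 3614, and 2004 with a pseudocount of 5, 2228 at a mean of 5 RPKM or more, 2387 with the trend removed, 1620 by a 4-fold rule, 1684 sharing no exon base and 1347 with the trend removed as well. Against the stages and both Ctrl1 libraries together the lower genes numbered 747, and 362 among genes sharing no exon base. Of 33 lists, 12 had at least 50% of their measured members called in 1 direction, and 5 with a pseudocount of 5 or with no filter. Upper-quartile scaling moved the median of all genes to 0.02. Over stages, rising genes fell in number to 1531 at a mean of 5 RPKM or more; leaving out a stage gave 1270 to 2406 rising and 1267 to 3079 falling, the lowest without E18. E11 to E14 alone gave 0 rising and 0 falling genes by limma, with 2913 at an unadjusted p under 0.05, so no position could be read from them. The share of rising genes between E11 and E18 was 40.6% with coding-total scaling, 38.1% to 38.9% without a Neuron-ctrl library and 43.6% without shared exons; for falling genes it was 33.3%, 35.1% to 36.0% and 39.4%. Emx1 turned to 0.32 with the trend removed and 0.20 when shared exons were also left out, Notch3 to 0.10 with the trend removed, and the forebrain regional median to 0.175 with both. The 7 pair ratios became 10 with a pseudocount of 0.1. The causes were not tested. Neuron-ctrl held fewer reads than the stages, and a gene listed at 0 there is limited to an expected 3 reads or fewer per library, by counting error only. Of 2979 values of 228 named genes 2770 counted as unchanged. For a called gene this meant the same direction and call. For an uncalled gene it meant a move smaller than its spread between pairs of libraries, whatever the sign. Of 459 list values 326 moved by less than the spread. No paired analysis was possible because the stages have 1 library each and the comparison with Neuron-ctrl comes from no test.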
